A study of Mus musculus with 2 samples.

Results

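The interleukin (IL)-1 and IL-18 genes described here are 10 rows of a count matrix from single-cell RNA sequencing of mouse liver. Il1a, Il1b, Il1f9 and Il18 encode cytokines, Il1rn, Il1r2 and Il18bp encode inhibitors or decoys, and Nlrp3, Casp1 and Casp4 encode parts of the machinery that processes IL-1β and IL-18. They were chosen by name as members of 1 axis, all 10 were in the matrix of 25909 genes, and they are described across cell clusters, diets and genotypes. CD45.2+ Lin- CD11b+ cells, with Lin standing for CD90.2, B220, NK1.1 and SiglecF, were sorted from 4 mice. Of the 2 genotypes, Egr2 fl/fl served as control and the other was Lyz2 Cre/+.Egr2 fl/fl, and 1 mouse of each was fed normal diet (ND) and 1 was fed CDA-HFD, a high-fat diet low in choline that induces steatohepatitis. The CDA-HFD was fed for 7 weeks, to mice that the methods describe as males aged 6 to 12 weeks. Their age when the cells were taken was not given. An age for the ND-fed mice was not given in the sources used here. Both genotypes carried loxP sites at Egr2, and Cre from the Lyz2 locus, which is active in myeloid cells, acted only in the second, so the genotypes are named control and Cre here.

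IL-1β and IL-18 are made as inactive precursors, and caspase-1, which is activated on inflammasomes such as the one built by NLRP3, cleaves both into their active forms. IL-1α and IL-1β share a receptor, which the antagonist encoded by Il1rn occupies without signalling, whereas the decoy receptor encoded by Il1r2 binds the cytokine and transmits nothing. IL-18 is held in check by the soluble binding protein encoded by Il18bp, and the ratio of a cytokine to its inhibitor, rather than the cytokine alone, sets the signal in tissue. The transcript levels given here precede all of these steps and say nothing of cleavage or release.

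Il1a, Il1b, Il1f9 and Il1rn lie on mouse chromosome 2 (build GRCm38.p6, RefSeq annotation), with Il1a at chr2:129299609-129310186, Il1b at chr2:129364569-129371164, Il1f9 at chr2:24186476-24193567 and Il1rn at chr2:24336860-24351491. Casp1 (chr9:5298517-5307281) and Casp4 (chr9:5308849-5336791) are neighbours on chromosome 9, which also holds Il18 (chr9:50554700-50581841). Il1r2 lies at chr1:40084692-40125230, Il18bp at chr7:102015074-102018232 and Nlrp3 at chr11:59541569-59566955. The 250 bases before the annotated start are shown for a cytokine and an inhibitor with high levels in neutrophil-marker clusters (Il1f9 and Il1rn) and for the cytokine and inhibitor with their highest levels in Kupffer cell-like clusters (Il18 and Il18bp). Capitals mark matches to the searched motifs on either strand. The sequences are RefSeq promoter windows of build GRCm38.p6, at chr2:24186226-24186475 (plus strand), chr2:24336610-24336859 (plus), chr9:50554450-50554699 (plus) and chr7:102018233-102018482 (minus), written 5′ to 3′ along the gene.
Il1f9: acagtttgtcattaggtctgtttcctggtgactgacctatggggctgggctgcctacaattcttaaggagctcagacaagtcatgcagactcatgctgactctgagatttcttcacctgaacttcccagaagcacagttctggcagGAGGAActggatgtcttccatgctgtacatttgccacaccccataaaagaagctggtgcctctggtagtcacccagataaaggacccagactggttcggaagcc
Il1rn: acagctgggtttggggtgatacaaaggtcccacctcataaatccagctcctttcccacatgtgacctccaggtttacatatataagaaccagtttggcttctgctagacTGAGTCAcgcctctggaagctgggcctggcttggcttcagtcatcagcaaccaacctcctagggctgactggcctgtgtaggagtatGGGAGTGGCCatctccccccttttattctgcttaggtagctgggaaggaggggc
Il18: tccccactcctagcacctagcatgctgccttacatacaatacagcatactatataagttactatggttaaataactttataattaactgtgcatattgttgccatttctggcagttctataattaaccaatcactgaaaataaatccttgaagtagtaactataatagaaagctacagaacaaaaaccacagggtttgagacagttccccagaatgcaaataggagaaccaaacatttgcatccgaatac
Il18bp: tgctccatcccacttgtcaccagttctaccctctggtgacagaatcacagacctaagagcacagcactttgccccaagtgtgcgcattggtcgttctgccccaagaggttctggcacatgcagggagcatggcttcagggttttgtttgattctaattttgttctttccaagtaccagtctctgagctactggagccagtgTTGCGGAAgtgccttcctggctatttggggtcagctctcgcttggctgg

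The Il1f9 window held the PU.1 motif GAGGAA, the Il1rn window the AP-1 motif TGANTCA and the NF-kB motif (GGGA and CC with any 4 bases between them), and the Il18bp window the C/EBP motif TTGCNNAA, whereas the Il18 window held none of the searched motifs. Over 14 such windows that cover the 10 members, GAGGAA occurred in 4, the NF-kB motif in 4, TGANTCA in 2 and TTGCNNAA in 1. Among 32851 promoter windows of the same length the shares were 23.3%, 17.6%, 6.75% and 9.56%. The interferon-response motif (GAAA and GAAA with any 2 bases between them), in 2.98% of all windows, and the EGR motif GCGTGGGCG, in 0.536%, occurred in 0 of the 14. These matches are a description of the letters and not of bound sites.

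After removal of barcodes that the authors named doublets and of cells with over 25% mitochondrial counts, 15384 cells were clustered with the members left out of the variable genes. They comprised 1723, 1590, 5885 and 6186 cells of the ND control, ND Cre, CDA-HFD control and CDA-HFD Cre mouse, the order kept throughout, with median counts per cell of 16459, 15864.5, 13168 and 13476.5. Clusters were called "-like" after marker lists, with the leading gene in brackets, and those that did not meet the naming rule are given by their leading genes. Egr2 stood at 13.3, 5.85, 49.4 and 18.2 counts per 1000000 counts (CPM) in the 4 mice. T and NK lymphocyte-like (181 cells), B and plasma cell-like (47) and eosinophil-like cells (27) were present although the sort was gated against them, as were 112 endothelial-like cells, a type that CD45.2 and CD11b should leave out. Kupffer cell-like cells made up 44.1% and 51.8% of the ND-fed mice but 0.051% and 0.162% of the CDA-HFD-fed mice, so that no diet comparison was possible in them. A level is the summed count of a gene over the cells of 1 cluster and mouse, divided by their total counts, as CPM, and intervals in brackets are exact 95% intervals that cover counting error only. Each group was 1 mouse, so replicate error could not be measured and nothing was tested. A difference between mice is called, and a gene is said to rise or fall, where levels were at least 1.5-fold apart with at least 100 counts over both mice and at least 20 cells of each. Levels of different genes are not compared, because counts depend on transcript length.

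Among the cytokines, Il1b was the most broadly detected member, with a count in 80.8% of all cells. It was highest in the unnamed cluster led by Csf1, Acod1 and Hdc and in the neutrophil-like (Retnlg) cluster. The Csf1 Acod1 Hdc cluster had 9 of 12 neutrophil markers raised, and it stayed unnamed because its cells held few counts, with a median of 4028, and 0 of its 10 leading genes were markers. The neutrophil-like (Retnlg) cluster, as low in counts, had 5 markers among its leading genes. The Csf1 Acod1 Hdc cluster had at least 20 cells on CDA-HFD alone, where Il1b stood at 21803 CPM (21617 to 21989) in 577 cells of the control mouse and 22079 CPM (21862 to 22297) in 425 cells of the Cre mouse. In the neutrophil-like (Retnlg) cluster Il1b stood at 11227, 8419, 22879 and 21644 CPM. The ranges over mice of these clusters overlapped, and both lay above the other clusters with at least 100 cells, in mice with at least 20 cells. Next came the neutrophil-like (AC118710.1) cluster at 7118 and 6137 CPM on CDA-HFD, whose median of 15171 counts per cell lay far above the 3965.5 of the neutrophil-like (Retnlg) cluster. The part of doublets in that cluster was not tested.

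Monocyte-like and macrophage-like clusters held Il1b at intermediate levels. On CDA-HFD it stood at 3184 and 2853 CPM in Ly6Chi monocyte-like (Thbs1) cells, 2177 and 2648 CPM in the Gpr84 Clec4e F10 cluster and 2413 and 2384 CPM in Cd209a dendritic cell-like cells. Hepatic lipid-associated macrophage (hLAM)-like cells were low at 515 and 502 CPM. With every cell thinned to 3000 counts, 99.0% of the Csf1 Acod1 Hdc cluster, 99.3% of neutrophil-like (Retnlg) cells and 35% of hLAM-like cells kept a count of Il1b. The share was 21% in T and NK lymphocyte-like cells (36.5% without thinning, median 7359 counts), a type known for little Il1b. By mouse it was 12.5%, 17.1%, 31.4% (16.9 to 49.3) and 29.3% (16.1 to 45.5), and shares at or below that of the same mouse are read as background. The 36.1% and 34.0% of hLAM-like cells on CDA-HFD lay above the shares of the same mice but within their intervals, which rest on 35 and 41 cells. Their CPM lay on either side of the 1222 and 312 CPM of T and NK lymphocyte-like cells, a level that itself differed between the mice. This reference could therefore not decide whether Il1b of hLAM-like cells lay above background.

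Il1f9, which encodes IL-36γ, an epithelial and myeloid cytokine of the IL-1 family, was close to restricted to clusters with neutrophil markers. It stood at 957 CPM (918 to 997) and 814 CPM (773 to 857) in the Csf1 Acod1 Hdc cluster on CDA-HFD and at 467, 575, 580 and 469 CPM in neutrophil-like (Retnlg) cells. The pooled level was 898 CPM in the former and 530 CPM in the latter, and their ranges over mice did not overlap. Il1f9 was at 2.14 and 2.87 CPM in Kupffer cell-like (C6) cells of the ND-fed mice. The share of cells with a count after thinning was 51.5% in the Csf1 Acod1 Hdc cluster (55.5% unthinned), 54.0% in neutrophil-like (Retnlg) cells (59.7%) and 0.769% in Kupffer cell-like (C6) cells (3.84%, median 25739 counts).

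Il1a, the gene of the cytokine that is active without cleavage and acts as an alarm signal of damaged cells, had another distribution. It was highest in endothelial-like (Aqp1) cells, at 140 CPM (99.4 to 193) in 21 cells and 148 CPM (116 to 185) in 40 cells of the ND-fed mice and 270 CPM (224 to 322) in 41 cells of the CDA-HFD Cre mouse. These cells also held markers of other types, with the summed Kupffer cell list at 2510, 851 and 250 CPM and the summed neutrophil list at 107, 3092 and 6738 CPM in these mice, and the part of such cells in the Il1a level was not tested. Kupffer cell-like (C6) cells held 84.8 and 60.0 CPM and the Csf1 Acod1 Hdc cluster 78.7 and 78.2 CPM, so these clusters overlapped. In that last cluster Il1a came from few cells, with a count in 7.11% and 6.82% of them after thinning. T and NK lymphocyte-like cells had 0, 0, 0 and 2.28 CPM. With 90% of hashtag counts required on a cell's own tag, the highest level moved to clusters with neutrophil markers.

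Il18 was highest in Kupffer cell-like cells and low in the clusters with the most Il1b. It stood at 133 CPM (103 to 169) and 119 CPM (94.7 to 147) in Kupffer cell-like (Cxcl13) cells of the ND-fed mice and at 107 and 106 CPM in Kupffer cell-like (C6) cells. The Tmem119 Olfml3 Pf4 cluster, which had 4 of 10 macrophage markers raised but was not named, held 52.2, 56.5, 64.6 and 65.9 CPM. In neutrophil-like (Retnlg) cells Il18 stood at 9.52, 6.70, 3.55 and 8.77 CPM and in the Csf1 Acod1 Hdc cluster at 10.7 and 3.88 CPM, which rested on 26 and 7 counts.

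**Figure D1:**
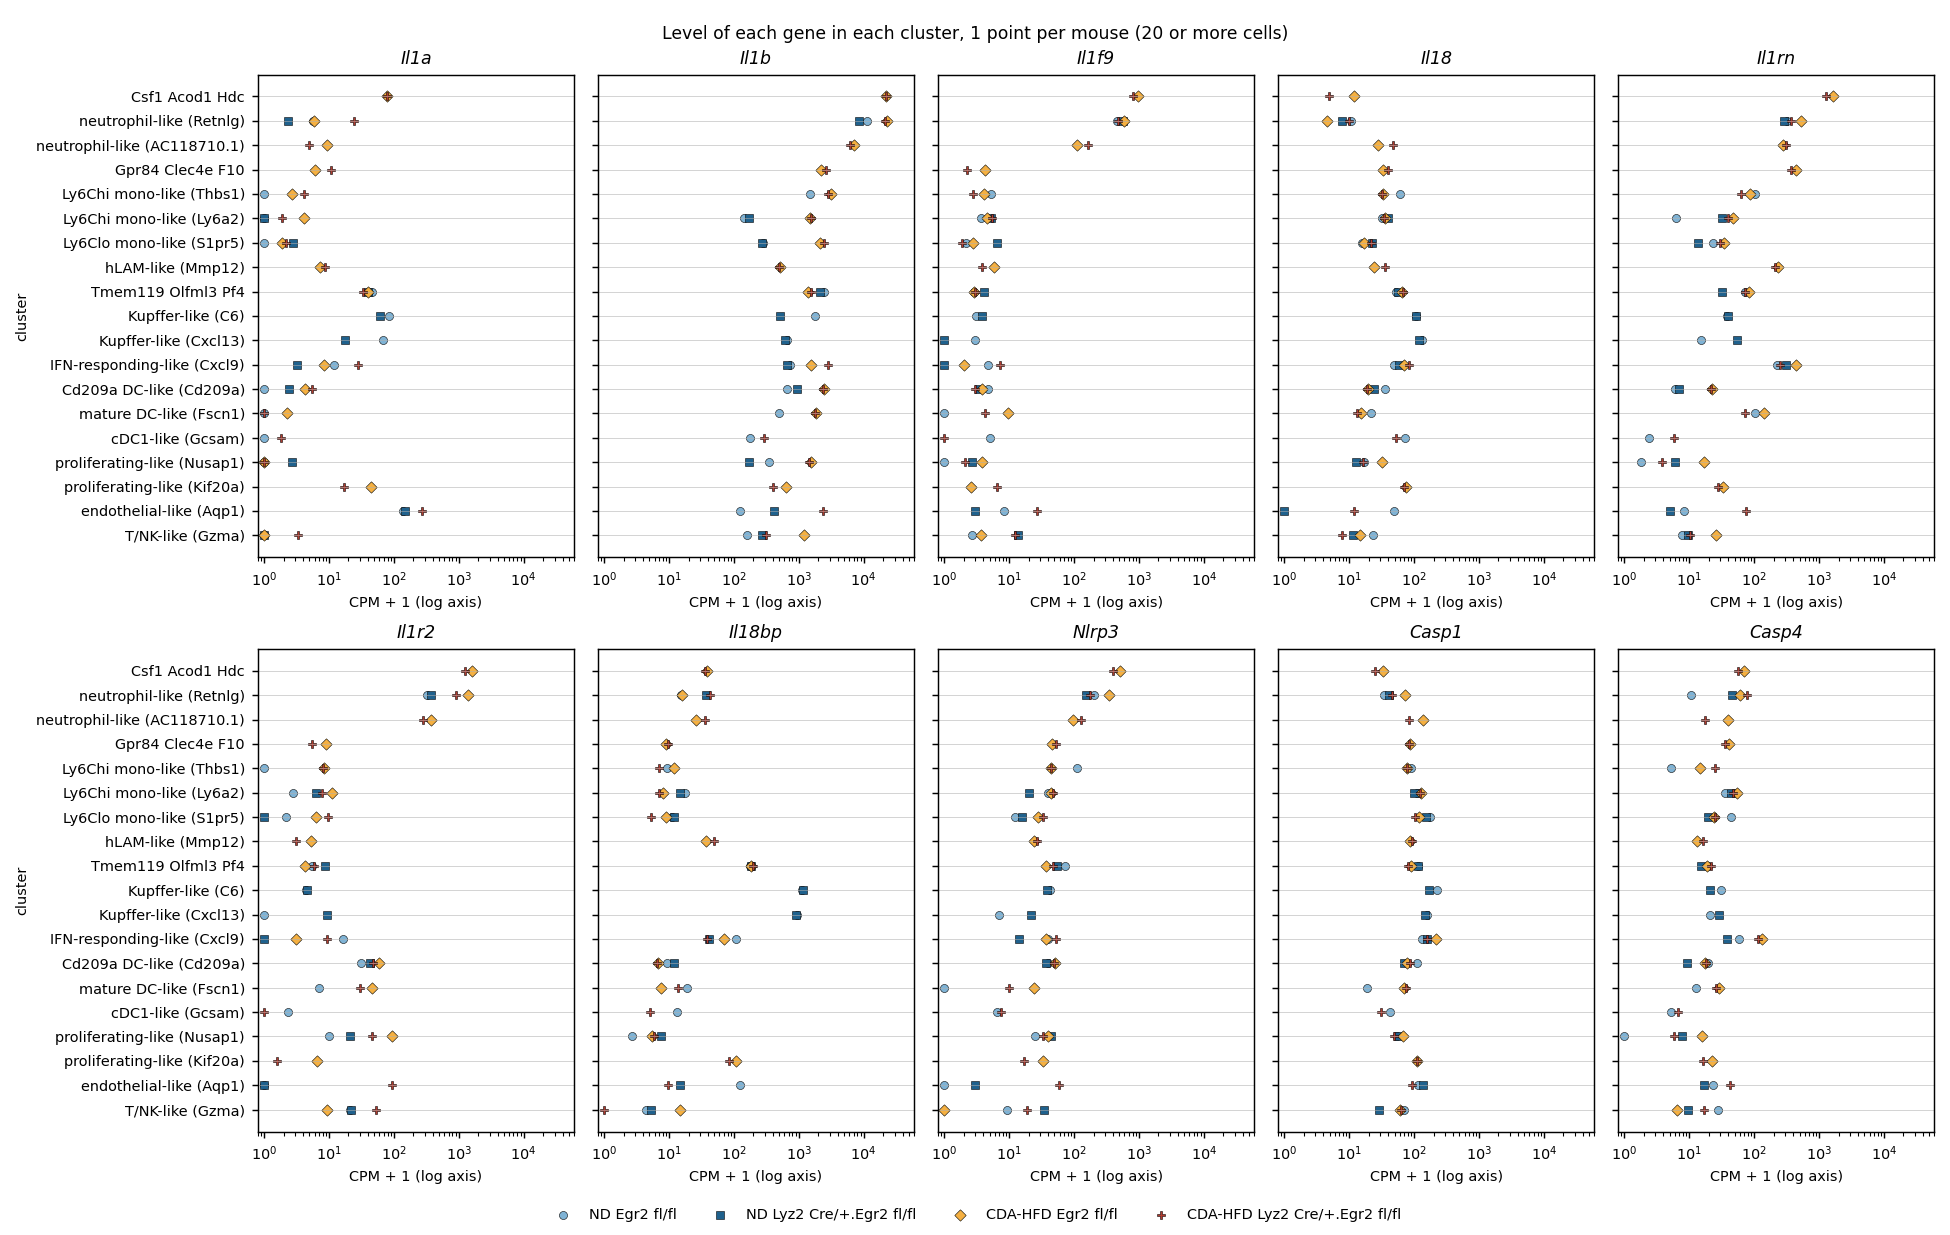
Level of each of the 10 genes by cluster, as CPM + 1 on a logarithmic axis, with 1 point per mouse that had at least 20 cells in the cluster. Il1f9, Il1rn, Il1r2 and Nlrp3 are high in the Csf1 Acod1 Hdc cluster, Il1b in that cluster and in neutrophil-like (Retnlg) cells, whereas Il18bp and Casp1 peak in Kupffer cell-like (C6) cells.

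The inhibitors separated along the same lines. Il1rn, the gene of the receptor antagonist, stood at 1631 CPM (1580 to 1682) and 1291 CPM (1240 to 1345) in the Csf1 Acod1 Hdc cluster on CDA-HFD, which did not overlap with the next cluster of at least 100 cells. Neutrophil-like (Retnlg) cells held 324, 288, 517 and 375 CPM, and the Gpr84 Clec4e F10 cluster held 442 and 367 CPM on CDA-HFD, so these overlapped. Interferon-responding-like (Cxcl9) cells held 226, 313, 438 and 247 CPM and hLAM-like cells 232 and 207 CPM. Among the small clusters, 27 eosinophil-like cells of the CDA-HFD-fed mice had 3495 CPM (2998 to 4052) in 10 cells and 2029 CPM (1725 to 2372) in 17 cells, and their pooled 2605 CPM was the highest level of a cluster. They were found on CDA-HFD alone, and the sort was gated against SiglecF+ cells. cDC1-like cells were near 0, at 1.38 CPM in the ND control mouse and 4.87 CPM in the CDA-HFD Cre mouse. After thinning, 70.8% of the Csf1 Acod1 Hdc cluster held a count of Il1rn (74.5% unthinned), against 0.552% of T and NK lymphocyte-like cells (6.08%).

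Il1r2, the decoy receptor gene, was high in the same neutrophil-marker clusters and low in macrophages. It stood at 1580 CPM (1530 to 1631) and 1258 CPM (1207 to 1311) in the Csf1 Acod1 Hdc cluster and at 319, 368, 1392 and 902 CPM in neutrophil-like (Retnlg) cells. Outside the clusters with neutrophil markers, Cd209a dendritic cell-like cells held 30.3, 42.6, 59.0 and 46.1 CPM and proliferating-like (Nusap1) cells 9.09, 19.9, 94.4 and 45.2 CPM. Endothelial-like (Aqp1) cells held 0 CPM in both ND-fed mice and 93.6 CPM in the CDA-HFD Cre mouse. Of the 27 eosinophil-like cells, 29.6% held a count after thinning. Kupffer cell-like (C6) cells held 3.46 and 3.66 CPM, hLAM-like cells 4.27 and 2.07 CPM and the Gpr84 Clec4e F10 cluster 8.06 and 4.47 CPM. The share of cells with a count after thinning was 74.3% in the Csf1 Acod1 Hdc cluster (77.0% unthinned), 61.6% in neutrophil-like (Retnlg) cells (66.1%) and 1.19% in Kupffer cell-like (C6) cells (4.96%).

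Il18bp was highest in Kupffer cell-like cells. It stood at 1130 CPM (1114 to 1145) and 1164 CPM (1148 to 1180) in Kupffer cell-like (C6) cells of the ND-fed mice and at 926 CPM (843 to 1015) and 898 CPM (830 to 970) in Kupffer cell-like (Cxcl13) cells, without overlap. The Tmem119 Olfml3 Pf4 cluster came next, at 177, 183, 180 and 198 CPM. The Gpr84 Clec4e F10 cluster, rich in Il1rn, held 7.98 and 8.53 CPM, and T and NK lymphocyte-like cells held 4.82 CPM over all mice. A count remained after thinning in 89.8% of Kupffer cell-like (C6) cells (98.7% unthinned) and in 1.10% of T and NK lymphocyte-like cells (3.87%).

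Of the processing genes, Nlrp3, which encodes the inflammasome sensor, followed the neutrophil-marker clusters. It stood at 509 CPM (481 to 539) and 403 CPM (374 to 433) in the Csf1 Acod1 Hdc cluster, at 200, 154, 348 and 176 CPM in neutrophil-like (Retnlg) cells and at 41.3 and 37.7 CPM in Kupffer cell-like (C6) cells. Casp1, the gene of the protease that the inflammasome activates, had a different order. It stood at 227 CPM (220 to 234) and 169 CPM (163 to 175) in Kupffer cell-like (C6) cells, at 132, 158, 215 and 155 CPM in interferon-responding-like (Cxcl9) cells and at only 32.6 and 23.9 CPM in the Csf1 Acod1 Hdc cluster. Casp4, which encodes caspase-11, the sensor of intracellular lipopolysaccharide and an interferon-induced gene, was highest in interferon-responding-like (Cxcl9) cells at 56.5, 37.7, 129 and 112 CPM, a range that overlapped with that of the Csf1 Acod1 Hdc cluster at 68.8 and 56.0 CPM. At clustering resolution 2.0 and with cells gated by marker scores, cells with neutrophil markers were highest in Casp4. With the cells of all mice pooled, 5 of the 10 members (Il1b, Il1f9, Il1rn, Il1r2 and Nlrp3) had their highest level among clusters of at least 100 cells in the Csf1 Acod1 Hdc cluster, where 8.23% of 11841 genes did. For Il1b this rested on the pooling, since the Csf1 Acod1 Hdc cluster held almost no ND cells, and in the CDA-HFD control mouse neutrophil-like (Retnlg) cells were higher, at 22879 against 21803 CPM. For 3 of 10 (Il18, Il18bp and Casp1) it lay in a Kupffer cell-like cluster, where 11.7% of these genes did.

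CPM is a share of the transcripts of a cell, and cells of the Csf1 Acod1 Hdc and neutrophil-like (Retnlg) clusters held few counts, so the share of each gene's total counts that came from each cluster was also taken. Clusters with neutrophil markers, the Csf1 Acod1 Hdc cluster and 3 neutrophil-like ones, made up 6.33%, 12.4%, 16.2% and 13.1% of the cells and 1.44%, 3.06%, 5.31% and 4.89% of all counts. They held 72.5%, 87.0%, 92.0% and 91.8% of the Il1f9 counts and 40.5%, 60.6%, 80.3% and 76.1% of the Il1r2 counts. Their part of Il1b was smaller, at 10.7%, 30.2%, 38.5% and 31.3%, and of Il1rn at 8.40%, 25.8%, 27.4% and 22.1%. On ND, Kupffer cell-like cells held 96.2% and 97.3% of Il18bp, 79.2% and 85.6% of Il18, 91.0% and 85.8% of Il1a and 74.9% and 79.3% of Casp1. They also held 70.6% of the Il1b counts of the ND control mouse but 42.2% of those of the ND Cre mouse.

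On CDA-HFD, where Kupffer cell-like cells were nearly absent, the counts came from other clusters. The Tmem119 Olfml3 Pf4 cluster, 10.9% and 13.3% of the cells, held 65.3% and 65.6% of Il18bp, 30.5% and 30.3% of Il18 and 47.8% and 40.5% of Il1a. The Gpr84 Clec4e F10 cluster, 15% and 15.3% of the cells, held 34.1% and 37.1% of Il1rn, ahead of the Csf1 Acod1 Hdc cluster (22.3% and 16.4%) and hLAM-like cells (18.4% and 19.0%). The Csf1 Acod1 Hdc cluster held 51.1% and 46.5% of the decoy receptor Il1r2. Il1b was spread wider, with 22.8% and 16.9% in that cluster, 14.2% and 13.1% in Cd209a dendritic cell-like cells and 12.8% and 16.1% in the Gpr84 Clec4e F10 cluster. Summed over all cells of a mouse, Il18bp stood at 682, 787, 42 and 50.7 CPM, Il18 at 79.4, 82.7, 32.4 and 36.6 CPM and Il1a at 54.2, 45.2, 12.7 and 13.6 CPM. The sums of Il1r2, at 11.2, 18.3, 88.1 and 54.1 CPM, and of Il1rn, at 58.0, 50.1, 208 and 157 CPM, went the other way. These sums move with the mix of cells, to which 3000 cells of each ND-fed and 9000 of each CDA-HFD-fed mouse were loaded.

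**Figure D2:**
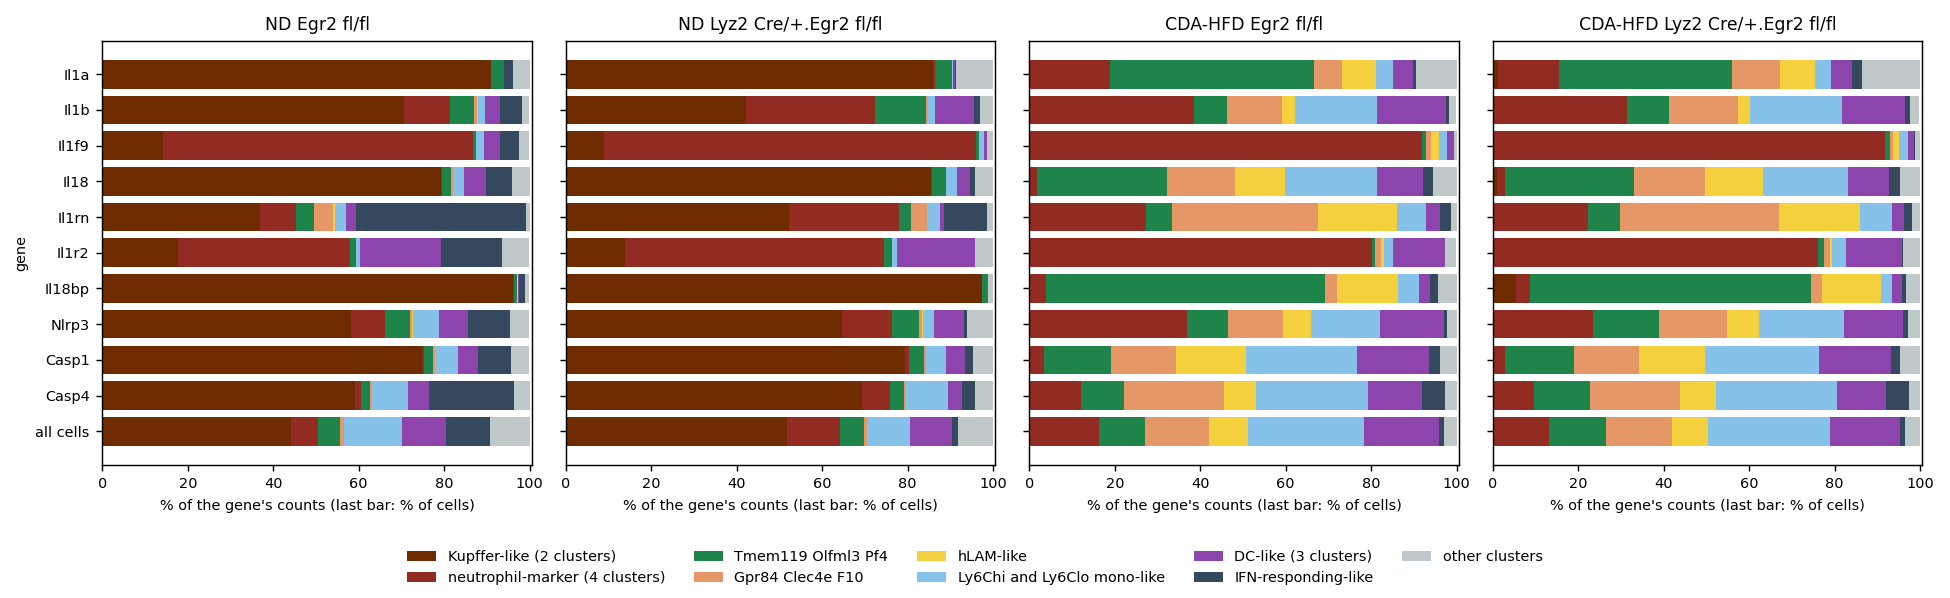
Share (%) of each gene's counts that came from each family of clusters, as stacked bars with 1 bar per mouse, and in the last group of bars the share (%) of cells. On ND most Il18bp, Il1a, Il18 and Casp1 counts lie in Kupffer cell-like cells, and on CDA-HFD most Il1f9 and Il1r2 counts lie in clusters with neutrophil markers.

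To set each inhibitor against its cytokine, the ratio of their counts was compared between clusters, in which gene length cancels. hLAM-like cells had 43.0 counts of Il1rn per 100 counts of Il1b (41.7 to 44.3), with 44.9 in the CDA-HFD control and 41.2 in the CDA-HFD Cre mouse, over an Il1b level not told apart from background. The Gpr84 Clec4e F10 cluster had 20.3 and 13.9 in these mice. The Csf1 Acod1 Hdc cluster had 6.90, neutrophil-like (Retnlg) cells 2.20 and Cd209a dendritic cell-like cells 0.870, so the order differed from that of the Il1rn level, in which the Csf1 Acod1 Hdc cluster stood above hLAM-like cells. Interferon-responding-like (Cxcl9) cells varied between mice, at 30.9, 47.6, 28.3 and 8.78. The 27 eosinophil-like cells, with the highest pooled Il1rn level, had 66.8 (58.0 to 76.9). For IL-18, Kupffer cell-like (C6) cells had 10.8 counts of Il18bp per count of Il18 (10.4 to 11.1), Kupffer cell-like (Cxcl13) cells 6.93, the Csf1 Acod1 Hdc cluster 4.82 (3.30 to 7.24) and neutrophil-like (Retnlg) cells 4.24 (2.72 to 6.84), on 33 and 25 counts of Il18, and the Tmem119 Olfml3 Pf4 cluster 2.93. The ratio was lower in Cd209a dendritic cell-like cells, at 0.321, in the Gpr84 Clec4e F10 cluster, at 0.236, and in cDC1-like cells, at 0.125 (0.0732 to 0.202). For the decoy receptor, the counts of Il1b per count of Il1r2 were 15.2 in the Csf1 Acod1 Hdc cluster, 20.1 in neutrophil-like (Retnlg) cells, 43.2 in Cd209a dendritic cell-like cells and 329 in Kupffer cell-like (C6) cells.

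**Figure D3:**
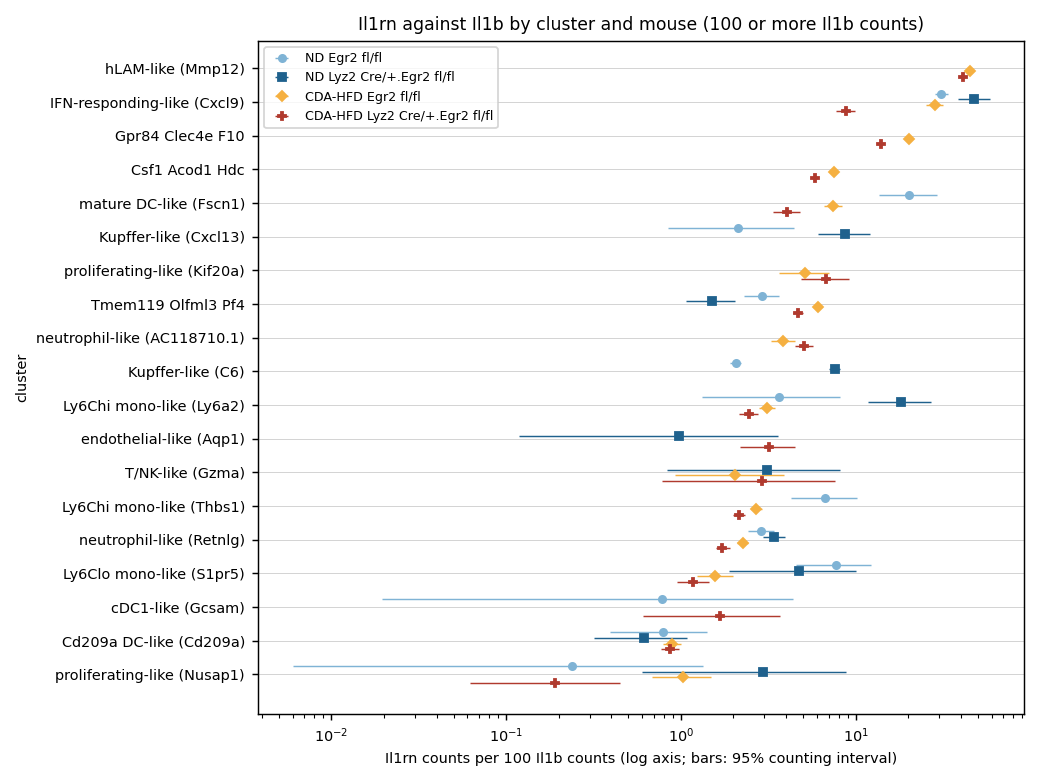
Counts of Il1rn per 100 counts of Il1b by cluster and mouse on a logarithmic axis, with 95% counting intervals, for clusters with at least 100 Il1b counts in the mouse. hLAM-like cells lie near 43 and Cd209a dendritic cell-like cells near 0.870 when mice are pooled.

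Joint detection of a cytokine and an inhibitor was read from the thinned cells. In the Csf1 Acod1 Hdc cluster 99.0% of 1018 cells held Il1b, so the shares with both Il1b and Il1rn (70.0%) or both Il1b and Il1r2 (73.8%) were set by the inhibitor alone. Il1r2 was found there in 73.1% of the cells with Il1rn and in 77.1% of those without. Of Kupffer cell-like (C6) cells 21.9% held Il18 and 20.4% held both Il18 and Il18bp. Il18bp was found in 93.3% of the cells with Il18 and in 88.8% of the others. In hLAM-like cells the shares were 35% for Il1b, 27.4% for Il1rn and 11.4% for both. Joint detection also depends on the depth and size of a cell, which thinning equalizes only in total counts.

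The genotypes were compared first on ND, to ask what changes with loss of Egr2 in resident cells. The lowest ratio among the called pairs was that of Il1b in Kupffer cell-like (C6) cells, which fell from 1809 CPM (1789 to 1828) in 697 cells of the control mouse to 511 CPM (501 to 522) in 727 cells of the Cre mouse, a ratio of 0.283 (0.276 to 0.289). The distribution over cells was shifted as a whole. The 10th percentile was 162 and 0 CPM in the control and Cre mouse, the median 1430 and 251 CPM, and the 90th percentile 4065 and 1329 CPM. After thinning, 86.9% (84.2 to 89.4) and 52.4% (48.7 to 56.1) of cells held a count, against 98.3% and 88.3% without thinning. Median depth was similar, at 26319 and 25065 counts. Under the other processing choices the ratio stayed between 0.261 and 0.290. Egr2 itself was low in these cells, at 4.45 and 0.619 CPM.

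**Figure D4:**
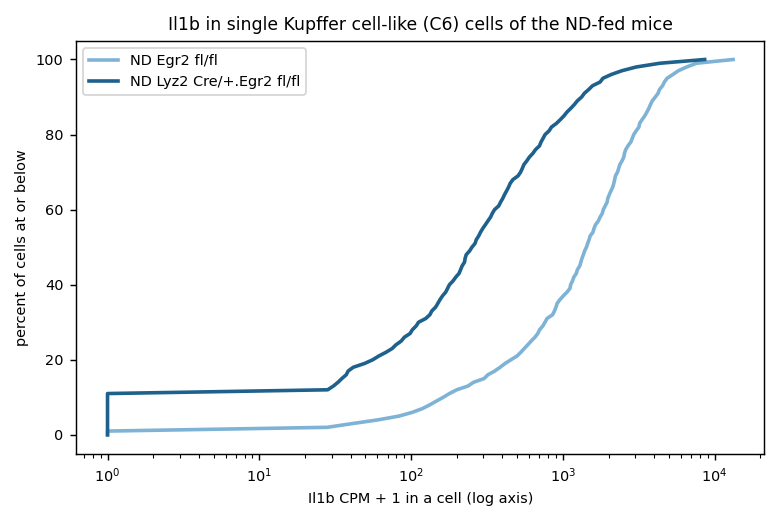
Cumulative share (%) of Kupffer cell-like (C6) cells against their Il1b level (CPM + 1, logarithmic axis) in the ND control and ND Cre mouse. The curve of the Cre mouse lies to the left, with medians of 251 and 1430 CPM.

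No other member was called in Kupffer cell-like (C6) cells. The ratios of Cre over control were 1.03 (1.01 to 1.05) for Il18bp, 0.991 (0.929 to 1.06) for Il18, 1.04 (0.934 to 1.16) for Il1rn, 0.913 (0.821 to 1.01) for Nlrp3, 0.742 (0.707 to 0.778) for Casp1, 0.708 for Il1a and 0.677 (0.591 to 0.776) for Casp4. In this cluster 3.82% of 10868 genes were called higher and 2.30% lower. From the pathway list, Irak3, an inhibitor of IL-1 receptor signalling, fell from 25.8 to 12.4 CPM (ratio 0.482), and Nfkbiz, which encodes IκBζ, a co-activator induced by IL-1, fell from 49.1 to 23.2 CPM (0.472). The Il1rn count per 100 Il1b counts was 2.06 (1.91 to 2.22) in the control and 7.58 (7 to 8.19) in the Cre mouse. The genes whose levels were most like those of Il1b over 58 cluster-by-mouse profiles were Dusp1 (Pearson's r 0.849), Ptgs2 (0.838), Hcar2 (0.829), Pnrc1 (0.828) and Ccrl2 (0.817), as a description over profiles that share libraries. In Kupffer cell-like (C6) cells Dusp1, an early-response phosphatase gene, stood at 300 and 153 CPM, a ratio of 0.511, and the ratios were 0.633 for Hcar2, 0.642 for Ccrl2, 0.923 for Pnrc1 and 0.978 for Ptgs2. Of neutrophil markers, S100a8 stood at 146 and 187 CPM and Csf3r at 50.6 and 42.4 CPM in these cells. Their summed hepatocyte markers stood at 81.4 and 194 CPM, whose part in the difference was not tested.

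Over all clusters on ND, 2 of 46 member and cluster pairs were called higher in the Cre mouse, 4.35%, where 6.88% of all gene and cluster pairs were, and 6 were called lower, 13%, where 6.66% were. Beside Il1b in Kupffer cell-like (C6) cells, Casp1 fell in Cd209a dendritic cell-like cells (109 to 69.8 CPM, ratio 0.638) and Il1b in proliferating-like (Nusap1) cells (348 to 169 CPM, 0.487). Il1rn in the Tmem119 Olfml3 Pf4 cluster stood at 70.5 and 31.4 CPM, a ratio of 0.445 (0.296 to 0.661) on 77 and 40 counts, and this direction turned when the mean over cells was taken. In interferon-responding-like (Cxcl9) cells, 177 in the control and 24 in the Cre mouse, Il18bp fell from 106 to 39.9 CPM (0.378) and Nlrp3 from 39.3 to 13.3 CPM (0.339) on 128 and 6 counts. In T and NK lymphocyte-like cells Il1b was higher in the Cre mouse, at 157 and 273 CPM, a ratio of 1.74 (1.33 to 2.30), and the summed neutrophil list went from 147 to 684 CPM. Il1b was also higher in endothelial-like (Aqp1) cells, at 122 and 407 CPM, a ratio of 3.33 (2.30 to 4.97), on 33 and 204 counts, and there the neutrophil markers S100a8 and Csf3r also went from 96.1 to 1092 CPM and from 7.39 to 75.8 CPM. The part of these markers in the Il1b values of both clusters was not tested. Of the other pathway genes on ND, Gsdmd rose in neutrophil-like (Retnlg) cells (78.6 to 121 CPM, 1.53) and fell in the Tmem119 Olfml3 Pf4 cluster (133 to 86.3 CPM, 0.651), where the adaptor gene Myd88 rose (54.9 to 84.0 CPM, 1.53). In interferon-responding-like (Cxcl9) cells the kinase genes Irak1 (53.8 to 26.6 CPM, 0.495) and Irak4 (61.1 to 37.7 CPM, 0.617) and Naip2 (36.3 to 6.66 CPM, 0.184) fell, and Txnip rose (236 to 377 CPM, 1.60), with 12, 17, 3 and 170 counts in the 24 cells of the Cre mouse.

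On CDA-HFD the genotype comparison concerned livers with steatohepatitis. Of 99 member and cluster pairs, 3 were called higher in the Cre mouse, 3.03%, where 4.92% of all gene and cluster pairs were, and 14 were called lower, 14.1%, where 3.96% were. The pairs are not independent, and the median ratio was 0.949. At clustering resolution 2.0 the calls were 13 higher and 13 lower of 135 pairs, so the larger number of lower calls depended on the clustering. The share of all gene and cluster pairs past the limit at that resolution was not taken. In the first clustering the lower calls were 4 of 10 pairs of Il1r2, 2 of 12 of Il1rn, 2 of 8 of Il18bp, 2 of 15 of Il1b, 2 of 14 of Casp1, 1 of 11 of Nlrp3 and 1 of 4 of Il1f9, so 8 of the 14 were of inhibitor or decoy genes. None of 9 pairs of Il18 was called in either direction.

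In neutrophil-like (Retnlg) cells the decoy receptor and the sensor were lower in the Cre mouse. Il1r2 fell from 1392 CPM (1331 to 1455) in 329 cells to 902 CPM (851 to 957) in 297 cells, a ratio of 0.648 (0.602 to 0.698), and the median cell from 930 to 456 CPM. It lay between 0.526 and 0.748 under the other processing choices, with 0.748 when a cell's own hashtag had to hold 90% of its hashtag counts, where it was no longer called. Nlrp3 fell from 348 CPM (318 to 380) to 176 CPM (154 to 201), a ratio of 0.507 (0.430 to 0.595), and Casp1 from 71.7 to 44.6 CPM, 0.623 (0.441 to 0.872). Il1b, at 22879 and 21644 CPM, Il1f9, at 580 and 469 CPM, and Il1rn, at 517 and 375 CPM, were not called. Egr2 stood at 26.3 and 3.19 CPM in these cells, and 7.68% of 2761 genes were called higher and 7.28% lower in them. Other pathway genes were called in both directions. Nfkbia, the inhibitor of NF-kB, fell from 2382 to 1395 CPM (0.586), Nfkbiz from 586 to 349 CPM (0.596) and the DNA sensor gene Aim2 from 51.8 to 24.7 CPM (0.477), whereas Gsdmd, which encodes the pore-forming gasdermin D, rose from 90.8 to 146 CPM (1.61) and Naip2, a sensor of bacterial secretion systems, from 27.0 to 49.4 CPM (1.83).

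The Csf1 Acod1 Hdc cluster had no called member, with Il1b at 21803 and 22079 CPM, Il1rn at 1631 and 1291 CPM, Il1r2 at 1580 and 1258 CPM and Nlrp3 at 509 and 403 CPM. Of the other pathway genes, Irak4, a kinase of the IL-1 receptor complex, fell from 57.7 to 34.4 CPM (0.596) and Nfkbiz from 889 to 589 CPM (0.663). Its Egr2 level went from 87.8 to 4.99 CPM. In the other clusters that held the largest part of a member, Il1rap, the gene of the accessory chain of the IL-1 receptor, rose from 4.83 to 7.27 CPM in the Gpr84 Clec4e F10 cluster (1.5), Irak3 rose from 23.6 to 36.2 CPM in the Tmem119 Olfml3 Pf4 cluster (1.54), and Mefv, which encodes the inflammasome sensor pyrin, rose from 15.4 to 26.2 CPM in hLAM-like cells (1.70) and from 44.6 to 70.9 CPM in interferon-responding-like (Cxcl9) cells (1.59). Among the genes that followed Il1r2 most closely over the 58 profiles, Ptgs2os2 (r 0.861), Cass4 (0.818), Mrgpra2b (0.811), Rdh12 (0.809) and Cd33 (0.806), the ratios in neutrophil-like (Retnlg) cells ranged from 0.597 for Mrgpra2b to 1.28 for Cd33.

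In interferon-responding-like (Cxcl9) cells, 66 in the control and 71 in the Cre mouse, the cytokine was called higher and its antagonist lower in the Cre mouse on CDA-HFD. Il1b rose from 1549 to 2817 CPM, a ratio of 1.82 (1.71 to 1.94), Il1rn fell from 438 to 247 CPM, 0.565 (0.483 to 0.660), and Il18bp fell from 68.5 to 37.3 CPM, 0.544. Egr2 stood at 59.1 and 35.5 CPM in these cells, a ratio of 0.600 (0.389 to 0.917). Resolution 2.0 gave a cluster led by Cxcl9, Ly6i and Gbp2, with 34 and 41 cells of the CDA-HFD-fed mice. There Il1b stood at 1182 and 2728 CPM, but Il1rn at 276 and 235 CPM was less than 1.5-fold apart. The fall of Il1rn therefore depended on the clustering. Il1rn also fell in mature dendritic cell-like (Fscn1) cells, from 139 to 71.8 CPM, 0.518 (0.419 to 0.637), where Egr2 stood at 8.11 and 4.97 CPM (0.613, 0.244 to 1.42). hLAM-like cells, in which Egr2 went from 67.7 to 11.9 CPM, had no called member other than Il1f9, at 68 and 36 counts, which turned direction with cells gated by marker scores. Il1b stood at 515 and 502 CPM, Il1rn at 232 and 207 CPM, Il18 at 23.0 and 34.5 CPM and Il18bp at 36.1 and 48.3 CPM in them. In the Gpr84 Clec4e F10 cluster Il1a rose from 5.20 to 9.72 CPM, 1.87 (1.39 to 2.52), and Il1r2 fell from 8.06 to 4.47 CPM, 0.555 (0.402 to 0.763), both at low levels. Casp4 rose from 13.7 to 23.9 CPM in Ly6Chi monocyte-like (Thbs1) cells, 1.75 (1.40 to 2.18), but it was lower at clustering resolution 2.0 and with cells gated by marker scores. The fall of Il1r2 in mature dendritic cell-like (Fscn1) cells (ratio 0.635) also turned with that gate. Il1b fell in proliferating-like (Kif20a) cells from 627 to 400 CPM (0.639) and in T and NK lymphocyte-like cells, 35 and 41 in number, from 1222 to 312 CPM (0.256).

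**Figure D5:**
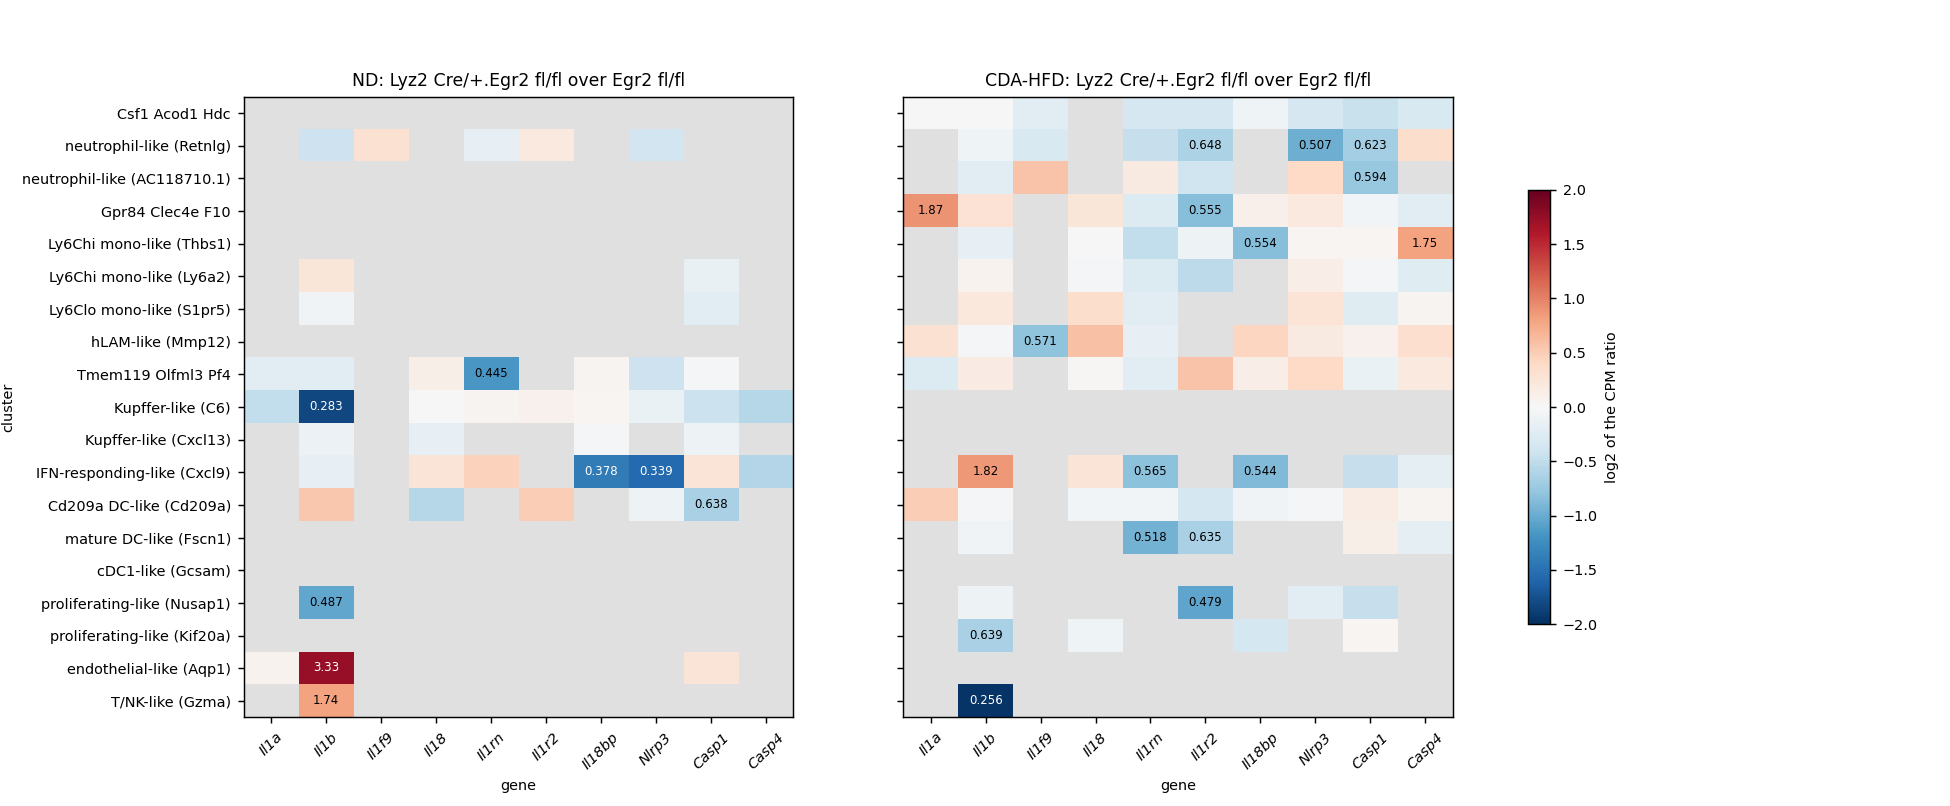
Log2 ratio of CPM, Cre over control mouse, for each gene (columns) and cluster (rows) on ND and on CDA-HFD, with numbers on called pairs and grey where counts or cells were too few. On ND Il1b in Kupffer cell-like (C6) cells is lower in the Cre mouse, and on CDA-HFD 14 of 99 pairs are called lower and 3 higher.

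To resolve macrophages that the first clustering merged, 7707 monocyte-like and macrophage-like cells of the CDA-HFD-fed mice were clustered again. A cluster of 195 cells (82 control, 113 Cre) had all 10 markers of monocyte-derived Kupffer cells (moKCs) raised, from a list without the members. It held Il18bp at 621 and 669 CPM, Il18 at 150 and 131 CPM and Il1a at 115 and 113 CPM, and 68.2% of its cells held Il18bp after thinning (91.8% unthinned). Of these cells 81 and 112 came from the Tmem119 Olfml3 Pf4 cluster, 12.7% and 13.6% of its cells on CDA-HFD, and they held 64.6% and 64.1% of its Il18bp, 43.3% and 37.2% of its Il18 and 53.9% and 65.7% of its Il1a counts. The next clusters for Il18bp were those led by Fosb, Ptgs1 and Gbp8, at 96.8 CPM pooled, and hLAM-like cells, at 67.1 CPM. The highest Il1rn levels lay elsewhere, at 445 and 401 CPM in the Slc7a11 Ccl24 Clec4n cluster and 454 and 369 CPM in Ly6Chi monocyte-like (Clec4e) cells. Between genotypes 7 of 72 member and cluster pairs were called higher in the Cre mouse, where 5% of all pairs were, and 2 lower, where 3.52% were. The higher calls were Il1rn in Ly6Chi monocyte-like (Slfn1) cells (25.8 to 42.7 CPM, 1.66), Il18 in hLAM-like cells (29.1 to 43.9 CPM, 1.51), Il1a in the Slc7a11 Ccl24 Clec4n cluster (4.77 to 10.4 CPM, 2.19), Il1b in the Olfr46 Vmn2r53 Gm10125 cluster of 29 Cre and 36 control cells (1418 to 2133 CPM, 1.5) and Nlrp3 in 3 clusters, namely the Fosb Ptgs1 Gbp8 cluster (60.5 to 95.9 CPM, 1.58), Ly6Chi monocyte-like (Slfn1) cells (12.4 to 23.9 CPM, 1.93) and Ly6Clo monocyte-like (S1pr5) cells (21.4 to 33.2 CPM, 1.55). Both lower calls were of Il1r2, in the Slc7a11 Ccl24 Clec4n cluster (7.62 to 3.82 CPM, 0.501) and in Ly6Chi monocyte-like (Ly6a2) cells (11.2 to 6.71 CPM, 0.601), at low levels. Il18bp was in none of the calls.

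Diet was then compared within each genotype, in clusters with cells on both diets. In the control mice 24 of 50 member and cluster pairs were called higher on CDA-HFD, 48.0%, where 15.9% of all gene and cluster pairs were, and 6 were called lower, 12.0%, where 15.3% were. In the Cre mice 17 of 42 were higher, 40.5%, where 13.1% of all pairs were, and 1 lower, 2.38%, where 12.9% were. Both comparisons have their own ND-fed and CDA-HFD-fed mouse, 1 each. Il1b rose in 9 of 10 pairs in the control and in 7 of 9 in the Cre mice. The 9 included T and NK lymphocyte-like cells, the type read as background, where it went from 157 to 1222 CPM (7.80, 6.23 to 9.86) in 64 and 35 cells, against 273 and 312 CPM in the Cre mice (1.14). The 7 included endothelial-like (Aqp1) cells (407 to 2328 CPM), in which the summed neutrophil list went from 3092 to 6738 CPM. The part of RNA from other cells in these rises was not tested. It was low on ND in Ly6Chi monocyte-like (Ly6a2) cells, at 144 CPM (123 to 168) and 170 CPM (145 to 199), and stood at 1495 CPM (1468 to 1522) and 1566 CPM (1536 to 1597) on CDA-HFD. The ND levels lay by those of T and NK lymphocyte-like cells of the same mice (157 and 273 CPM), so the ratios of 10.4 (8.91 to 12.2) in the control and 9.21 (7.88 to 10.8) in the Cre mice are taken over a level not told apart from background. The median such cell had 0, 0, 559 and 397 CPM, and 20.4%, 18.7%, 61.6% and 55.4% of cells held a count after thinning (41.9%, 40.0%, 76.8% and 69.9% unthinned). In Ly6Clo monocyte-like (S1pr5) cells Il1b stood at 282, 268, 2111 and 2444 CPM, with ratios of 7.49 (6.59 to 8.55) and 9.13 (7.76 to 10.8). Their ND level in the Cre mouse lay below the 273 CPM of its T and NK lymphocyte-like cells. The ratio in the Cre mice is thus also taken over a level not told apart from background. Cd209a dendritic cell-like cells had 647 and 2413 CPM in the control and 947 and 2384 CPM in the Cre mice, and neutrophil-like (Retnlg) cells had ratios of 2.04 (1.98 to 2.10) and 2.57 (2.50 to 2.64). Several of these clusters held different cells on the diets. At clustering resolution 2.0, 95.2% and 94.4% of the neutrophil-like (Retnlg) cells of the ND-fed mice lay in a neutrophil-like (Nlrp12) cluster, which held 8.42% of those of the CDA-HFD Cre mouse and 11 cells in all of the CDA-HFD control mouse. Of the Ly6Chi monocyte-like (Ly6a2) cells, 95.7% and 97.3% on ND but 25.6% and 34.9% on CDA-HFD fell in the same cluster, and of Cd209a dendritic cell-like cells 87.8% and 84.5% against 29.0% and 37.4%. The diet comparison was therefore repeated within these finer clusters, a choice made after seeing the data. There Il1b of Ly6Chi monocyte-like (Ly6a2) cells went from 154 to 319 CPM in the control (2.08, 1.76 to 2.47) and from 128 to 194 CPM in the Cre mice (1.51, 1.23 to 1.87). All of these levels lay below that of T and NK lymphocyte-like cells of the same mouse, so neither diet was told apart from background. Il1b of Cd209a dendritic cell-like (Mgl2) cells was not called, at 529 and 506 CPM in the control (0.957) and 683 and 512 CPM in the Cre mice (0.750). In neutrophil-like (Nlrp12) cells the ratio was 2.17 (2.06 to 2.29) in the Cre mice, with 25 cells on CDA-HFD, and in Ly6Clo monocyte-like (S1pr5) cells, which were not split, 7.33 and 9.19. Over all clusters of that resolution Il1b was higher in 6 of 9 pairs of either genotype, without a share of all pairs to set beside it. It was lower in 1 pair of the control mice, the Gm47578 Gm48417 Gm48119 cluster (0.462). In the first clustering the exception in the control mice was the Tmem119 Olfml3 Pf4 cluster, where Il1b fell from 2422 to 1370 CPM, 0.566 (0.543 to 0.590). It stood at 2089 and 1538 CPM there in the Cre mice. Most of its ND cells lay in a moKC-like (Vcam1) cluster at resolution 2.0. Within that finer cluster Il1b was not called, at 2727 and 1914 CPM in the control (0.702) and 2251 and 2523 CPM in the Cre mice (1.12). In the Tmem119 Olfml3 Pf4 cluster the summed neutrophil list went from 762 to 214 CPM and the summed Kupffer cell list from 2315 to 1357 CPM in the control mice (718 to 260 and 2963 to 1603 CPM in the Cre mice), and their part in the Il1b values was not tested.

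Among the inhibitors of IL-1, Il1rn was called higher on CDA-HFD in 4 of 7 pairs of the control and 3 of 6 of the Cre mice, Il1r2 in 4 of 4 and 1 of 2, and neither was called lower in the first clustering. Over all pairs the shares called higher were 15.9% and 13.1%. Il1r2 in neutrophil-like (Retnlg) cells rose from 319 to 1392 CPM in the control mice, 4.36 (3.66 to 5.24), and from 368 to 902 CPM in the Cre mice, 2.45 (2.15 to 2.81). The neutrophil-like cells of the diets lay in different clusters at resolution 2.0, and within the neutrophil-like (Nlrp12) cluster Il1r2 stood at 377 and 410 CPM in the Cre mice (1.09, 0.767 to 1.51). In Cd209a dendritic cell-like cells Il1r2 went from 30.3 to 59.0 CPM in the control mice. Within Cd209a dendritic cell-like (Mgl2) cells of resolution 2.0 it went the other way, from 22.4 to 9.99 CPM on 42 and 39 counts, too few for a call. There it was called lower in the Cre mice, from 47.1 to 16.3 CPM (0.345, 0.248 to 0.478). Il1rn in Cd209a dendritic cell-like cells rose from 5.12 to 21.5 CPM and from 5.82 to 20.7 CPM, ratios of 4.20 and 3.56, but within Cd209a dendritic cell-like (Mgl2) cells it stood at 3.20 and 4.61 CPM and at 6.25 and 8.24 CPM on 6, 18, 11 and 37 counts. In Ly6Chi monocyte-like (Ly6a2) cells Il1rn rose from 5.26 to 46.6 CPM in the control mice, 8.85 (4.03 to 24.3), on 6 counts on ND, and stood at 30.8 and 38.4 CPM in the Cre mice. Within the finer cluster of these cells it stood at 6.04 and 22.0 CPM in the control mice (3.64, 1.62 to 9.58), on 7 and 43 counts, too few for a call. Il1rn in neutrophil-like (Retnlg) cells rose 1.60-fold in the control mice, from 324 to 517 CPM, but its direction turned under the same limit of 90% on the hashtag. Of the processing genes, Casp4 in interferon-responding-like (Cxcl9) cells rose 2.28-fold and 2.96-fold, and Casp1 and Nlrp3 in neutrophil-like (Retnlg) cells rose 2.15-fold and 1.74-fold in the control mice. Nlrp3 was called higher in that 1 of 6 pairs of the control mice and lower in 2, from 71.4 to 35.5 CPM in the Tmem119 Olfml3 Pf4 cluster (0.497) and, with 20 cells on ND, in Ly6Chi monocyte-like (Thbs1) cells (0.389, a direction that turned with cells gated by marker scores). In the Cre mice it was higher in 2 of 5 pairs and lower in 0. Casp1 was called higher in 3 of 9 pairs of the control mice, but in the Cre mice it was higher in 0 of 7 pairs and lower in 1. The IL-18 pair had no higher call. Il18 was called higher in 0 of 5 and 0 of 4 pairs and lower in 2 of the 5 of the control mice, in Cd209a dendritic cell-like cells (34.4 to 18.3 CPM, 0.531) and in Ly6Chi monocyte-like (Thbs1) cells (58.8 to 31.8 CPM, 0.540), with 14 counts in 20 cells on ND, where it turned to 2.01 without the highest 1% of values and 1.04 at resolution 2.0. In moKC-like (Vcam1) cells of resolution 2.0 Il18 was higher, from 54.5 to 86.0 CPM in the control mice (1.58), with 69.6 and 86.4 CPM in the Cre mice. Il18bp was called higher in 0 of 2 and 0 of 1, and lower in 1 of the 2, interferon-responding-like (Cxcl9) cells of the control mice (106 to 68.5 CPM, 0.648). The Tmem119 Olfml3 Pf4 cluster, its main holder on CDA-HFD, had 177 and 180 CPM in the control and 183 and 198 CPM in the Cre mice. These cells too differed in kind, since 86.8% and 84.6% of them on ND but 40.3% and 35.2% on CDA-HFD lay in a moKC-like (Vcam1) cluster at resolution 2.0. Within that cluster Il18bp stood at 190 and 274 CPM in the control (1.44, 1.24 to 1.69) and 248 and 356 CPM in the Cre mice (1.44, 1.27 to 1.63), not called.

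The wider pathway was read from a list of 45 genes, of which 41 were in the matrix, the members included. Between genotypes on CDA-HFD, 10 of 334 pairs were called higher and 26 lower, where 4.92% and 3.96% of all gene and cluster pairs were, with 1 and 8 of 47 for inhibitors and decoys, 0 and 8 of 82 for signalling genes, 6 and 5 of 160 for inflammasome and processing genes, 2 and 3 of 33 for ligands and 1 and 2 of 12 for receptors. On ND 8 of 146 pairs were higher and 13 lower, where 6.88% and 6.66% of all pairs were. With diet, 56 of 189 pairs were higher and 22 lower in the control mice, where 15.9% and 15.3% of all pairs were, and 39 of 155 higher and 21 lower in the Cre mice, where 13.1% and 12.9% were. By group, in the control mice ligands had 9 higher and 3 lower of 17, inhibitors and decoys 10 and 1 of 24, signalling genes 18 and 3 of 49, receptors 2 and 0 of 3 and inflammasome and processing genes 17 and 15 of 96. In the Cre mice the counts were 8 and 0 of 16, 6 and 3 of 18, 15 and 2 of 39, 1 and 0 of 3 and 9 and 16 of 79. Over the 58 profiles Il1rn followed Litaf (r 0.866), Ehd1 (0.866), Lilr4b (0.865), Aldoa (0.861) and Gabarap (0.858) most closely, and Il18bp followed Kcnj10 (0.840), Ptgs1 (0.830), Pdgfc (0.829), Folr2 (0.828) and Slc16a9 (0.818), as a description. Among the members themselves the highest r was that of Il1r2 and Il1f9, 0.80, and that of Il18bp and Il18 was 0.50.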

How the data were processed

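The deposited matrix holds whole-number counts for each gene and barcode. The authors captured cells on BD Rhapsody, amplified cDNA by TAS-Seq, mapped reads to GRCm38, set a lower limit on barcodes at the inflection point and gave each to a mouse by its hashtag. Whether reads or unique molecules were counted is not given in the sources used here. The submitters' processing notes name R 4.2.1 and Seurat 4.1.1. Of 16786 barcodes, 1392 named doublets by the authors were left out and 15394 belonged to a mouse, with 0 repeated. Doublets within a mouse were not removed. Another 7 hashtag columns were tied to no mouse and left out. For 62 genes, none of them a member, the lowest value above 0 was over 1, so their values are not raw counts. They include 3 of 12 neutrophil markers (S100a9, Retnlg and Camp) and 3 of 10 Kupffer cell markers (Clec4f, Vsig4 and Cd5l), without which the summed lists were no higher and each comparison printed kept its direction.

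Cells with at most 25% mitochondrial counts were clustered in Seurat 5.3.0 (R 4.3.3) with 57 principal components, 1992 variable genes without the members, and resolution 1, and 7707 cells again with 95 components. A cluster was named where at least 3 markers of a class were raised (a count in 20% of cells and 2 times the CPM of other cells) and its 10 leading genes did not speak against it. Summed counts gave CPM with exact Poisson intervals, shares Clopper-Pearson intervals and ratios exact binomial intervals (Python 3.11.15, scipy 1.17.1). Shares were taken after thinning each cell to 3000 counts, below the lowest total of 3115. Total counts per mouse were 32029953, 27840300, 85227192 and 90124521. The members, lists and naming rule were chosen with earlier results of these data known. All members are named. Other pathway genes are named where called between genotypes in a cluster that holds the largest share of a member's counts in any mouse, and the 5 most alike genes are those with the highest Pearson correlation of log2(CPM + 1) among genes with at least 500 counts. The calculation was checked on simulated data. The alternatives were edgeR 4.0.16 TMM scaling, a per-cell marker gate, resolution 2.0, at most 10% mitochondrial counts, purer hashtags, removal of the largest cells or the highest 1% of values, the mean over cells, other count minimums, a 2-fold limit and thinning to 7000 counts. The diet comparison within single clusters of resolution 2.0 was chosen after seeing the data.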

Additional observations from a re-analysis of the deposited data

Results flagged for a closer look

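Il1b in T and NK lymphocyte-like (Gzma) cells differed between genotypes in opposite directions on the diets. The ratio of Cre over control was 1.74 on ND and 0.256 on CDA-HFD, and this difference between the diets was not tested. The levels were 157, 273, 1222 and 312 CPM in the ND control, ND Cre, CDA-HFD control and CDA-HFD Cre mouse, from 93, 129, 444 and 137 counts in 64, 41, 35 and 41 cells. After thinning, 12.5%, 17.1%, 31.4% and 29.3% of the cells held a count (31.2%, 34.1%, 40.0% and 43.9% unthinned), so the share of the CDA-HFD-fed mice differed less than the level. In the same cells the neutrophil marker S100a8 stood at 113, 356, 110 and 294 CPM and Csf3r at 8.42, 23.3, 41.3 and 31.9 CPM, and their part in the Il1b values was not tested. Under the other processing choices the ratio lay between 1.64 and 3.66 on ND and between 0.174 and 0.427 on CDA-HFD.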

How the results depend on the processing

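The calls between mice numbered 17 for genotype on CDA-HFD, 8 for genotype on ND, 30 for diet in the control and 18 for diet in the Cre mice. In this order they were 55, 50, 65 and 51 with no minimum of counts and 6, 2, 17 and 9 with a minimum of 500. At a 2-fold limit the calls for genotype on CDA-HFD numbered 2, at resolution 2.0 they numbered 26, with 90% of hashtag counts required on a cell's own tag those for genotype on ND numbered 4, and with cells gated by marker scores those for diet in the Cre mice numbered 28. Of 500 recomputed ratios of the 73 called pairs, 394 lay within the counting interval, 97 outside it in the same direction and 9 turned direction. This left 66 pairs that turned under none of the alternatives in which they were recomputed. Only 50 pairs were recomputed with purer hashtags, 52 with the marker gate, 56 at resolution 2.0 and 59 without the highest 1% of values. Pairs of unnamed clusters were not recomputed with the gate or at resolution 2.0.

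The ratios that turned were Il1rn with diet in neutrophil-like (Retnlg) cells of the control mice (1.60, and 0.965 with purer hashtags), Il1rn between genotypes on ND in the Tmem119 Olfml3 Pf4 cluster (0.445, and 1.43 as a mean over cells) and, in Ly6Chi monocyte-like (Thbs1) cells, Il18 with diet in the control mice (0.540, 2.01 without the highest 1% of values and 1.04 at resolution 2.0). In the same cells Casp4 between genotypes on CDA-HFD turned (1.75, 0.795 with the marker gate and 0.773 at resolution 2.0), as did Nlrp3 with diet in the control mice (0.389, and 1.18 with the gate). The gate also turned Il1f9 in hLAM-like cells (0.571 to 1.08) and Il1r2 in mature dendritic cell-like cells (0.635 to 1.09) between genotypes on CDA-HFD. The cause was not tested. The cluster with the highest level moved for Il1a with purer hashtags and for Casp4 with the gate and at resolution 2.0. Chosen after seeing the data, the diet comparison within the cluster of resolution 2.0 that held most of the ND cells turned Il1b in Cd209a dendritic cell-like cells (3.73 to 0.957 in the control and 2.52 to 0.750 in the Cre mice), and moved Il1b in Ly6Chi monocyte-like (Ly6a2) cells from 10.4 to 2.08 and from 9.21 to 1.51 and Il1r2 in neutrophil-like (Retnlg) cells of the Cre mice from 2.45 to 1.09. For the Tmem119 Olfml3 Pf4 cluster it moved Il1b of the control mice from 0.566 to 0.702, no longer called. Il1rn of the Cre mice moved there from 2.29 to 7.17. No paired analysis was possible because each group is 1 mouse. Thinned to 7000 counts, which leaves out most cells of the Csf1 Acod1 Hdc and neutrophil-like (Retnlg) clusters, the highest share of cells with Il1b, Il1f9, Il1rn, Il1r2 and Nlrp3 moved to the neutrophil-like (AC118710.1) cluster.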
